A study of Mus musculus with 15 samples.

Results

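The sex difference in gene expression of the wild-type (WT) mouse liver was measured by RNA-seq in 3 WT females (FWT) and 3 WT males (MWT). These 6 livers are all the WT samples among 15 livers, and were chosen by the genotype and sex in their labels; the other 9 come from mice homozygous for a disrupted estrogen receptor alpha gene (ESR1KO; 5 females and 4 males). All mice were 8 weeks old and of the line B6N(Cg)-Esr1tm4.2Ksk/J, in which ESR1KO homozygotes are bred from heterozygous parents, and no treatment or further allele is given for the WT mice. The question posed here is which autosomal genes, pathways and gene families differ between WT females and WT males. Whether the 3 mice of a sex came from 1 litter or several, and the estrous stage of the females, is not given, so each P value measures only the spread between the mice in the fit, which includes the ESR1KO mice.

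The liver is among the most sexually dimorphic organs of the mouse. In males the pituitary releases growth hormone in pulses and in females more evenly, and the hepatocyte reads this pattern through the growth hormone receptor, JAK2 and the transcription factor STAT5B, on top of which BCL6 is known as a male-biased and CUX2 as a female-specific regulator. The best known targets are cytochrome P450s and conjugating enzymes, which process steroids, bile acids and xenobiotics, and the major urinary proteins (MUPs), small lipocalins that the male liver secretes and the urine carries as pheromone carriers.

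All 6 libraries showed the profile of liver, judged by the hepatocyte genes *Alb*, *Ttr*, *Apoa1*, *Apob*, *Trf*, *Asgr1*, *Cps1*, *Tat*, *Hnf4a* and *Fga*. Together these genes reached 122820 to 130440 CPM (counts scaled to a library of fixed size) in the females and 101040 to 103010 CPM in the males. *Alb* alone took 82840 to 91600 CPM in the females and 53550 to 55920 CPM in the males. The sums therefore do not describe the other genes of this list. The WT libraries held between 41195629 and 62050815 counts each, of which 17.09% to 20.29% fell on the top 10 genes. Between mice of the same sex, log2 CPM differed by a root mean square of 0.396 to 0.451 over genes, and between the sexes by 0.706 to 0.782. The first principal component of the autosomal genes took 63.65% of the variance and placed the 3 females between -44.12 and -40.8 and the 3 males between 38.36 and 47.4, so that the sexes did not overlap. Libraries of 1 group differed from each other by far more than counting error, and none repeated another.

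Of 17117 autosomal genes with enough counts to be tested, 824 (4.81%) passed an adjusted P of 0.05 in edgeR's quasi-likelihood test, 451 (2.63%) higher in females and 373 (2.18%) higher in males. The median log2 fold change (female over male) of all autosomal genes tested was 0.01. Adding a minimum log2 fold change of 1.5 in size left 305 called genes (1.78%): 154 (0.9%) higher in females and 151 (0.882%) higher in males. In 303 of the 305, all but *Atp2b2* and *Saa2*, the 3 females and 3 males did not overlap, whereas over all autosomal genes the 3 females lay above the 3 males in 14.8% and below them in 15.2%. The sizes ran far: 66 genes were above 3 on the log2 scale in females and 67 were as far in males, and 15 of the female genes had no count in any WT male while 2 of the male genes had none in any WT female. Protein-coding genes made up 109 of the called genes in either direction.

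**Figure D1:**
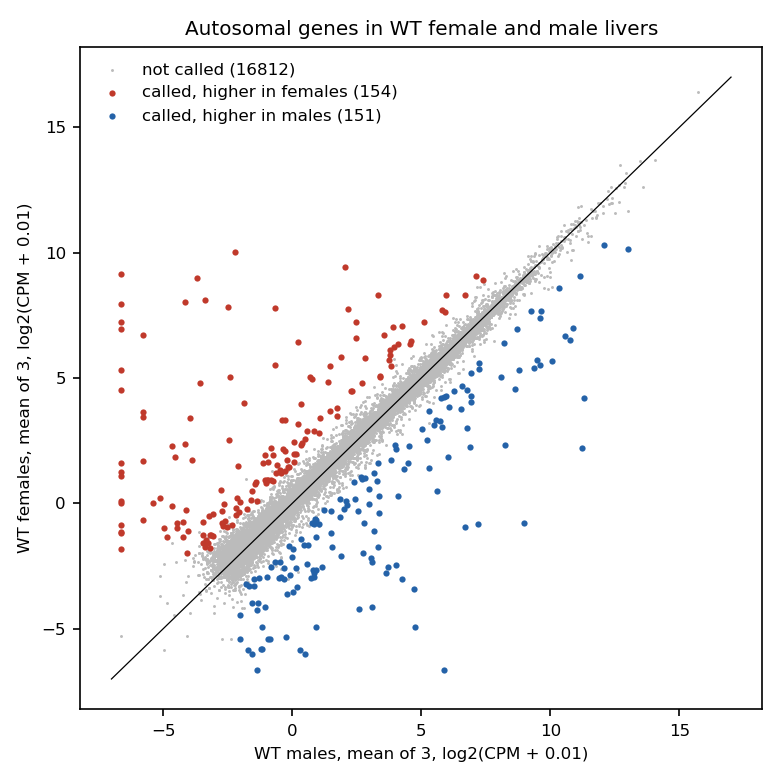
Mean expression of each autosomal gene tested in 3 WT males (x axis) against 3 WT females (y axis), both as log2(CPM + 0.01), with the line of equality. Red points are the 154 genes called higher in females, blue points the 151 called higher in males, and the column of red points at the left edge holds genes without a count in males.

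The 2 sets of called genes differed in the summed share of counts that they held. A few abundant genes weigh much in such sums, as *Serpina1e* with a mean of 8336 CPM in males, so the sums do not describe the typical gene of a set. The 154 female genes held 0.818% to 1.06% of all counts in a female liver and 0.0883% to 0.0992% in a male liver. The 151 male genes held 3.51% to 3.95% in a male liver and still 0.484% to 0.536% in a female liver. In bulk tissue, fewer cells that express a gene and less RNA of it per cell cannot be told apart.

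The most extreme female genes encoded cytochrome P450s of the Cyp2b, Cyp3a and Cyp2a families, the membrane-bound monooxygenases of drug and steroid metabolism. *Cyp2b9* was counted at 561, 523 and 611 CPM in the 3 females, and no read was assigned to it in any of the 3 males, which made it at least 27199.8-fold higher in females (adjusted P = 7.73e-08, edgeR; bounds of this kind set the group without a count to 3 counts and cover counting error only). *Cyp2b13* was read at 124, 131 and 201 CPM in females and was likewise absent from the male counts, a difference of at least 7326-fold (adjusted P = 1.42e-10, edgeR). The third expressed member, the phenobarbital-inducible *Cyp2b10*, was lower at 8.76, 10.9 and 12.4 CPM in females, and in males it reached 0.123, 0.0244 and 0.0159 CPM. All 3 tested Cyp2b genes were thus higher in females with no overlap, and the log2 fold change of *Cyp2b10* went from 7.69 to 8.93 without WT male 1.

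*Cyp2b9* and *Cyp2b13* lie in one cluster on chromosome 7, and their transcripts in GENCODE M21 share 89.3% of aligned bases. Their 250 bases upstream of the RefSeq start site (GRCm38.p6) are shown because they are nearly the same, with 248 of 250 bases identical. *Cyp2b9* is taken from chr7:26173159-26173408 and *Cyp2b13* from chr7:26061245-26061494, both on the + strand.
Cyp2b9: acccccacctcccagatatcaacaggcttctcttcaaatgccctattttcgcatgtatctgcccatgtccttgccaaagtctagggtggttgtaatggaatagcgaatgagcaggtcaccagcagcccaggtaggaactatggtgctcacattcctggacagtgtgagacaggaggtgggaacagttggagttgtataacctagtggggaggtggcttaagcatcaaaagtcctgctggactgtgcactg
Cyp2b13: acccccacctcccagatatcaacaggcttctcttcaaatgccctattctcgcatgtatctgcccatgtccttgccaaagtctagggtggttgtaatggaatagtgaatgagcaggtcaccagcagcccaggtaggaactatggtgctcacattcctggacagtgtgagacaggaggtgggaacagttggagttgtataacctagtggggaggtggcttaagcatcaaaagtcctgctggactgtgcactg
Neither stretch holds the letters TGTTTAC or ATTGAT on either strand, which are the short motifs of FOXA and of HNF6 and CUX factors and are set in capitals where they occur in the sequences that follow.

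The Cyp3a cluster on chromosome 5, whose best known members oxidise steroids and bile acids, was female-restricted over a stretch of 399 kb. From the first to the last called gene of this stretch, all 6 tested genes were called. *Cyp3a41a* was measured at 222, 204 and 321 CPM in females and had no count in males, at least 11979.7-fold (adjusted P = 3.02e-12, edgeR). *Cyp3a16* had 158, 48.1 and 164 CPM in females, with WT female 2 lowest, and *Cyp3a41b* had 29.9, 30.6 and 59.9 CPM, both again without a count in males. *Cyp3a44* reached 236, 193 and 359.6 CPM in females and 0, 0.122 and 0.0159 CPM in males, a log2 fold change of 12.53 ± 0.46 (SE; adjusted P = 1.71e-11, edgeR). *Cyp3a41a* and *Cyp3a41b* share 99.7% of their transcript bases and *Cyp3a41a* and *Cyp3a44* 95%, so the split of reads among them is uncertain. Other tested Cyp3a genes did not follow: of the 7 family members with plain numeric names, *Cyp3a16* and *Cyp3a44* passed and 5 did not, and the family median was 0.35.

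Upstream sequences of *Cyp3a41a* (chr5:145720137-145720386) and *Cyp3a44* (chr5:145805875-145806124), both on the - strand of GRCm38.p6, are shown because each holds both motifs at the same places. Capitals mark TGTTTAC, and ATCAAT, which is ATTGAT read on the other strand.
Cyp3a41a: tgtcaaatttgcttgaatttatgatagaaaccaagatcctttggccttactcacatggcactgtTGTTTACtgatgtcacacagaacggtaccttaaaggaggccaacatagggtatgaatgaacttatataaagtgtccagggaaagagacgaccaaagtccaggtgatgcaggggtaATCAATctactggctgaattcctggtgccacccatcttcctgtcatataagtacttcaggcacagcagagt
Cyp3a44: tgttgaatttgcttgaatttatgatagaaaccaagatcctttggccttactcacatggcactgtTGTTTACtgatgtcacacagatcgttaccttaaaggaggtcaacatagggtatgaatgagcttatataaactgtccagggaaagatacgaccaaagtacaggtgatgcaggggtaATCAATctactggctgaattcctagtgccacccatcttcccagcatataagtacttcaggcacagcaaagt
The 2 stretches share 94.4% of their bases. A match of letters is a description and not a bound site.

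Among the Cyp2a genes, *Cyp2a4*, a steroid 15-alpha-hydroxylase, was read at 899.7, 1271 and 986 CPM in females against 0.296, 0.147 and 0.174 CPM in males (log2 fold change 12.33 ± 0.97, adjusted P = 2.62e-07, edgeR). Its neighbour in sequence, the coumarin hydroxylase *Cyp2a5*, shares 98.2% of its transcript but was at 773, 841 and 1370.2 CPM in females and 987, 1013 and 441 CPM in males, so the groups overlapped (adjusted P = 0.801). *Cyp2a22* was also higher in females, and *Cyp2a12* did not pass. Per kilobase of exon (mean CPM divided by exon length), *Cyp2a4* was the highest of the named genes called in females, at 605 CPM in females, above *Cyp2c69* at 405 and *Cyp2b9* at 301.

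**Figure D2:**
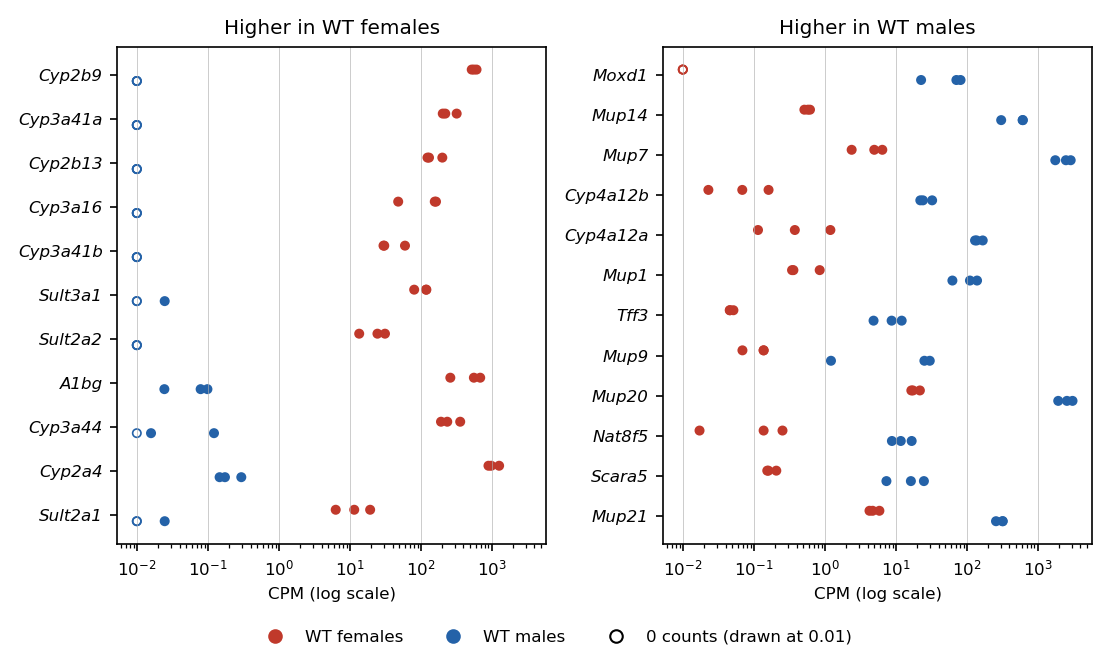
CPM (log scale) in each WT mouse for protein-coding autosomal genes with the largest log2 fold changes in either direction (11 female, 12 male), red for the 3 females and blue for the 3 males. Open circles mark mice with 0 counts, drawn at 0.01; in every row the 2 sexes stand apart, and the males of *Cyp2b9*, *Cyp3a41a*, *Cyp2b13*, *Cyp3a16*, *Cyp3a41b* and *Sult2a2* and the females of *Moxd1* are all at 0.

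Sulfotransferases, which attach sulfate to steroids, bile acids and xenobiotics, formed a second female group. Of 12 sulfotransferases tested, 8 passed higher in females and 1, *Sult2a8*, higher in males, with a family median of 1.27. Over all autosomal genes tested these shares were 2.63% and 2.18%. Summed over the family, females stood at 1312, 1210 and 1461 CPM and males at 1295, 1204 and 1173 CPM, so the sexes overlapped. *Sult3a1* was read at 119, 80.8 and 119.9 CPM in females and at 0.0247, 0 and 0 CPM in males (adjusted P = 3.95e-12, edgeR). The hydroxysteroid sulfotransferase *Sult2a2* was at 24.5, 13.6 and 31.3 CPM in females without a count in males, at least 1115-fold, and *Sult2a1* at 11.6, 6.34 and 19.4 CPM against 0.0247, 0 and 0 CPM. In each of these genes WT female 2 was the lowest female, and still above all males. *Sult2a8* went the other way at 492, 496 and 609 CPM in females and 1007, 891 and 909 CPM in males, a log2 fold change of -0.81 that no longer passed when any 1 WT mouse was left out. With 1 mouse left out, between 7 and 9 sulfotransferases passed higher in females. *Sult2a5*, counted among the 8, did not pass with DESeq2 (adjusted P = 0.292, Wald test). *Sult2a1* and *Sult2a2* share 98.5% of 525 aligned transcript bases, so the split of reads between them is uncertain.

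Of 5 flavin monooxygenases, which oxygenate amines and sulfur compounds, 4 were higher in females, as were 2.63% of all autosomal genes tested. *Fmo2* was expressed in both sexes, at 65.8, 64.7 and 52.1 CPM in females and 9.21, 20.1 and 12.1 CPM in males. *A1bg*, a plasma glycoprotein of the immunoglobulin superfamily, was as restricted as the P450s, with 688, 261 and 560.5 CPM in females and 0.0988, 0.0244 and 0.0793 CPM in males (log2 fold change 12.78 ± 0.79, adjusted P = 1.15e-08, edgeR). The values of WT female 2 for *A1bg* were less than those of the other females, and every female lay far above every male. The male side of these genes rests on a few reads, and the fitted values moved with 1 mouse. Without WT male 2 the log2 fold change became 14.40 for *Cyp3a44*, and without WT male 1 15.35 for *Sult3a1* and 12.25 for *Sult2a1*, all still past the threshold.

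The Cyp2c family, which holds the epoxygenases of arachidonic acid and the mouse relatives of steroid hydroxylases, was mixed: 7 of 13 tested members passed higher in females and 2 higher in males (median 0.94). For all autosomal genes tested these shares were 2.63% and 2.18%. *Cyp2c69* was read at 928, 512 and 635 CPM in females and 4.42, 4.03 and 3.93 CPM in males (log2 fold change 7.39 ± 0.66, adjusted P = 1.29e-06, edgeR). *Cyp2c40* was at 326, 317 and 307 CPM in females and 11.1, 10.1 and 8.66 CPM in males. *Cyp2c37* differed less, at 676, 443 and 473 CPM in females and 154, 168 and 96.8 CPM in males (log2 fold change 1.93 ± 0.34, adjusted P = 0.00184). Unlike *Cyp2b9* and *Cyp2b13*, these Cyp2c genes were read in every male. *Cyp2c40* and *Cyp2c69* share 97.7% of their transcripts, and reads may be divided between them. The male-side members *Cyp2c55* and *Cyp2c67* had log2 fold changes of -1.12 and -0.74. *Cyp2c55* no longer passed without WT female 1, WT female 3, WT male 1 or WT male 2, and *Cyp2c67* no longer passed without any one mouse other than WT male 1, with values down to -0.58 without WT male 2.

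Transporters and other enzymes completed the female side. *Slc22a26*, a member of the organic anion transporter family, was read at 272, 198 and 207 CPM in females and 0.0741, 0.0978 and 0.333 CPM in males, and *Slc22a27* at 39.5, 29.2 and 29.3 and 0.247, 0.147 and 0.143 CPM, while their neighbour *Slc22a28* went the other way at 2.13, 3.14 and 2.45 CPM in females and 21.7, 19.1 and 19.1 CPM in males (log2 fold change -2.96 ± 0.23, adjusted P = 1.92e-07, edgeR). Without WT male 3 the log2 fold change of *Slc22a26* went from 10.20 to 11.31. All 3 genes lie within 351 kb of chromosome 19. *Hao2*, a peroxisomal hydroxyacid oxidase, was at 22.1, 34.6 and 26.4 CPM in females and below 0.1 CPM in each male. *Cyp17a1*, the 17-alpha-hydroxylase and lyase of steroid synthesis, was at 116, 79 and 97.9 CPM in females against 4.67, 7.26 and 4.8 CPM in males. *Hamp2*, a paralogue of the iron hormone hepcidin (93% of aligned transcript bases), was at 61.4, 192 and 195 CPM in females and 6.92, 5.89 and 3.88 CPM in males, and of the other 20 iron genes tested none passed.

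On the male side the single most extreme gene was *Moxd1*, a monooxygenase related to dopamine beta-hydroxylase, with 71.5, 22.7 and 81.7 CPM in males and no count in females, at least 2838-fold (adjusted P = 3.16e-08, edgeR). The largest group, however, was the Mup genes. Of 20 tested Mup genes 18 passed higher in males and none the other way, and their median log2 fold change was -3.88 against 0.01 over all autosomal genes. Among all autosomal genes tested 2.18% passed higher in males. Summed over the family the males stood between 13940 and 19950 CPM and the females between 2508 and 4070 CPM. *Mup7* was read at 2912, 1767 and 2494 CPM in males and 2.39, 4.98 and 6.46 CPM in females (log2 fold change -9.03 ± 0.54, adjusted P = 8.44e-09, edgeR). *Mup20*, which encodes the male pheromone darcin, was at 3090.3, 2577 and 1944 CPM in males and 21.9, 17.5 and 16.6 CPM in females, and *Mup14* at 617, 306 and 613 CPM in males and 0.516, 0.576 and 0.619 CPM in females. *Mup3* was the exception in level: it carried most of the female Mup counts, at 2263, 3804 and 3733 CPM in females and 9299, 7756 and 7847 CPM in males, and its log2 fold change was -1.35 ± 0.25 (adjusted P = 0.00294). Many Mup transcripts are close to identical (*Mup17* and *Mup15* 98.5%, *Mup7* and *Mup14* 95%), so the level of a single member is uncertain.

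The male mice did not carry the same Mup profile. In 20 of the 22 called genes of the Mup locus WT male 2 was the lowest male, with a median ratio of 0.509 to the mean of the other males. The ratio was lowest for *Mup9*, at 25.3, 1.22 and 30.1 CPM in the 3 males, and highest for *Mup20*, where it was 1.02. *Mup17* was at 1027, 239 and 1057 CPM in males against 44.7, 23.9 and 69.9 CPM in females, and *Mup18* at 169.5, 35.8 and 164 CPM against 18.6, 9.54 and 21.9 CPM. In all 22 genes WT male 2 remained above every female, and 16 to 18 of the tested Mup genes passed when 1 mouse was left out.

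**Figure D3:**
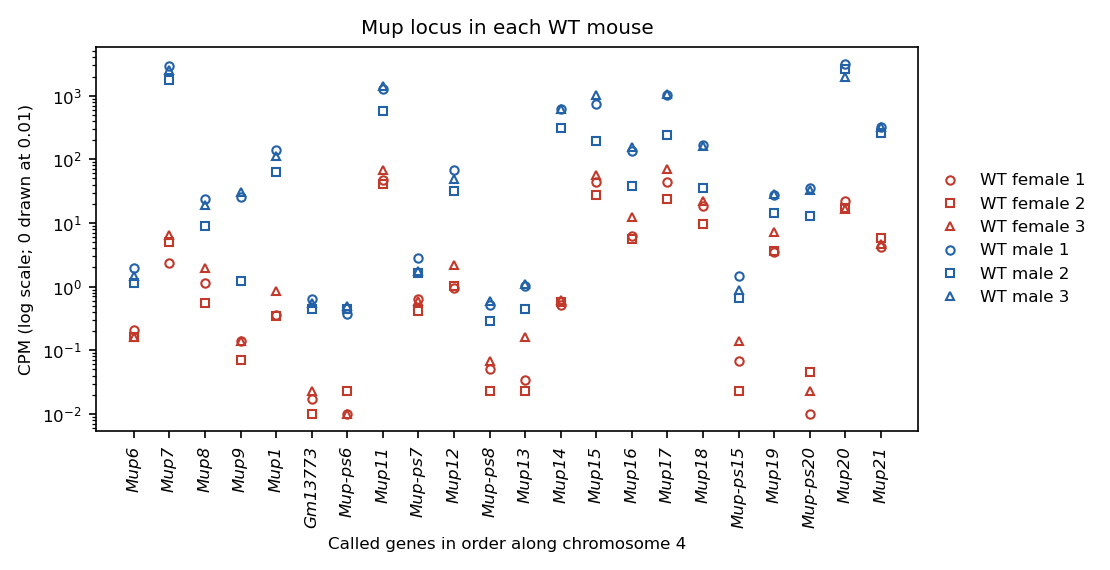
CPM (log scale, 0 drawn at 0.01) of the 22 called genes of the Mup locus, in their order along chromosome 4, in each WT mouse. Blue symbols are males and red symbols females; the blue squares of WT male 2 fall below the other males over most of the locus but not at *Mup20*.

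Upstream sequences of 2 Mup genes are shown because each carries the ATTGAT letters at 2 places, in one gene that was nearly male-restricted (*Mup7*, chr4:60070476-60070725) and in one that females expressed as well (*Mup3*, chr4:62087318-62087567), both on the - strand of GRCm38.p6. Capitals mark ATCAAT, which is ATTGAT read on the other strand.
Mup7: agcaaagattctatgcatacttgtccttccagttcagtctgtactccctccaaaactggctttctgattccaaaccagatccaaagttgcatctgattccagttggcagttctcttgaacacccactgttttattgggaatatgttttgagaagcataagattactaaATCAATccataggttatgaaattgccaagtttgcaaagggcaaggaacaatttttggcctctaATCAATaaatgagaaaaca
Mup3: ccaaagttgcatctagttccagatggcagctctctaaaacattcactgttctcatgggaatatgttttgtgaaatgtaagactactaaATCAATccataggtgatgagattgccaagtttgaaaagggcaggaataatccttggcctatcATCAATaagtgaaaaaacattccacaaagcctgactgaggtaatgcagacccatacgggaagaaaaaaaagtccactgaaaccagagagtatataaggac
*Mup7* had a log2 fold change of -9.03 and *Mup3* of -1.35.

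The Cyp4a genes, which hydroxylate the omega end of fatty acids, were split between the sexes inside 280.0 kb of chromosome 4. *Cyp4a12a* was at 168, 131 and 138 CPM in males and 0.378, 1.2 and 0.115 CPM in females (log2 fold change -8.04 ± 0.44, adjusted P = 2.88e-09, edgeR), and *Cyp4a12b*, 98.3% identical in transcript, at 32.5, 24.1 and 22.2 and 0.0688, 0.161 and 0.0229 CPM. The other 3 called members were higher in females. *Cyp4a14* was read at 575, 26.5 and 63.5 CPM in females and 0.716, 0.611 and 0.539 CPM in males, and *Cyp4a10* at 483, 45.2 and 127 CPM in females and 4.74, 2 and 6.6 CPM in males. In both genes every female was above every male, and WT female 1 was far above the other females. Without WT female 1 the log2 fold change went from 8.49 to 6.19 for *Cyp4a14* and from 5.60 to 4.26 for *Cyp4a10*, both still past the threshold, and *Cyp4a31* went from 2.90 to 1.92 and no longer passed, as it did not without WT male 1 or WT male 2; without WT male 3 it went to 4.28. Without WT female 2, *Cyp4a12a* went to -9.11 and *Cyp4a12b* to -8.99.

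*Cyp4a10* and *Cyp4a14* are classical targets of PPARA, the nuclear receptor that drives fatty acid oxidation. Of 33 tested genes of fatty acid oxidation and PPARA targets 7 passed higher in females (*Cyp4a14*, *Acot3*, *Cyp4a10*, *Cyp4a31*, *Acot2*, *Vnn1* and *Hadh*) and none higher in males, and the median log2 fold change was 0.10. Among all autosomal genes tested 2.63% passed higher in females and 2.18% higher in males. The acyl-CoA thioesterase *Acot3* was at 144, 56 and 58.3 CPM in females and 0.963, 0.293 and 2.22 CPM in males (log2 fold change 6.13 ± 0.66, adjusted P = 1.14e-05, edgeR; 5.54 without WT female 1 and 7.10 without WT male 3). WT female 1 was the highest of the 3 females in 32 of the 33 genes, and the summed level of the list was 16270 CPM in that mouse, 10900 and 11360 CPM in the other females and between 12130 and 13730 CPM in the males. Without WT female 1 or without WT male 2, 4 members passed in place of 7. *Cpt1a*, which brings fatty acids into the mitochondrion, was at 629.9, 473 and 534 CPM in females and 513, 541 and 594 CPM in males, and the sexes overlapped. The feeding state of the mice is not given, and its part was not tested.

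Some male genes were among the most abundant of the liver. *Serpina1e*, an alpha-1-antitrypsin, was at 7521, 8369 and 9119 CPM in males and 1203, 895 and 1279 CPM in females (log2 fold change -2.89 ± 0.32, adjusted P = 1.57e-05, edgeR). *Scp2*, the sterol carrier and peroxisomal thiolase of bile acid side-chain cleavage, was at 4702, 4497 and 3887 CPM in males and 1458, 1134 and 1164 CPM in females. *Aox3*, an aldehyde oxidase, was at 2367, 2223 and 2182 CPM in males and 575, 492 and 535 CPM in females. *Selenbp2*, a selenium-binding protein, was at 2065, 2123 and 1502 CPM in males and 78.2, 124 and 176 CPM in females. All 4 were expressed by every female, and the males were higher by 1.80 to 3.91 on the log2 scale without overlap. *Gstp1*, a glutathione S-transferase, was at 1734, 1438 and 1334 CPM in males and 85, 122 and 99.3 CPM in females (log2 fold change -3.88 ± 0.22, adjusted P = 3.8e-09, edgeR), and its paralogue *Gstp2* (94.5% of aligned transcript bases) at 2.89, 2.1 and 3.44 and 0.275, 0.553 and 0.458 CPM. The serine protease inhibitor family was split: *Serpina6*, which encodes corticosteroid-binding globulin, lies in the same cluster as *Serpina1e* and was higher in females, at 418, 483 and 548 CPM against 161, 159.8 and 184 CPM in males. *Serpina1e* shares 96.3% of aligned transcript bases with *Serpina1c*, so reads may be divided between them. *Serpina1a*, *Serpina1b*, *Serpina1c* and *Serpina1d* did not pass.

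Of 17 tested genes of steroid inactivation 7 were higher in males and 2 in females, and the median log2 fold change was -0.34. Among all autosomal genes tested 2.18% were higher in males and 2.63% in females. *Cyp2d9*, a testosterone 16-alpha-hydroxylase, was at 1882, 1902 and 1426 CPM in males and 55.9, 118 and 97.3 CPM in females (log2 fold change -4.27 ± 0.34, adjusted P = 3.35e-07, edgeR). *Cyp7b1*, the oxysterol and steroid 7-alpha-hydroxylase of the alternative bile acid pathway, was at 707, 746 and 713 CPM in males and 38, 48.2 and 72.4 CPM in females (log2 fold change -3.77 ± 0.31, adjusted P = 4.36e-07, edgeR). *Hsd3b5*, which acts as a 3-ketosteroid reductase in the male liver, was at 421, 459.6 and 440.2 CPM in males and 18.2, 52 and 50.9 CPM in females, and the 5-alpha-reductase *Srd5a1* at 99.4, 85.3 and 77 and 36.5, 36.1 and 38.6 CPM. On the female side were the 5-beta-reductase *Akr1d1* at 248, 261 and 313 CPM against 136, 144 and 122 CPM in males, and *Hsd17b6* at 281, 251 and 221 CPM against 137, 129.6 and 106 CPM; *Hsd17b6* no longer passed without WT female 1 or WT male 3.

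Bile acid synthesis and transport, with 28 genes tested, had 4 higher in males (*Cyp7b1*, *Scp2*, *Slco1a1* and *Acox2*) and 2 higher in females (*Slco1a4* and *Akr1d1*), and a median of -0.10. Over all autosomal genes tested 2.18% passed higher in males and 2.63% higher in females. The 2 uptake transporters lie in one family and went opposite ways. *Slco1a1* was at 982, 989 and 934 CPM in males and 295, 411 and 415 CPM in females, and *Slco1a4* at 196, 179.5 and 225 CPM in females and 66.7, 80.1 and 33.1 CPM in males. *Abcg2*, an efflux pump for sulfated steroids and xenobiotics, was at 154, 101 and 115 CPM in males and 35.1, 33.9 and 40.8 CPM in females, while *Abcd2*, a peroxisomal importer of very long chain fatty acids, was at 175, 127 and 105 CPM in females and 8.15, 15.9 and 32.9 CPM in males; without WT male 3 the log2 fold change of *Abcd2* went from 2.83 to 3.50. *Elovl3*, a fatty acid elongase, was at 189, 104 and 66.2 CPM in males and 6.66, 1.94 and 5.61 CPM in females (log2 fold change -4.65 ± 0.53, adjusted P = 1.94e-05, edgeR). It was the only member of 14 Elovl, Fads and Scd genes to pass.

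Complement genes, most of them made by hepatocytes, were higher in males in 8 of 30 cases and higher in females in 1, with a median of -0.25. Over all autosomal genes tested 2.18% passed higher in males and 2.63% higher in females. With any 1 mouse left out, between 6 and 7 complement genes passed higher in males in place of 8. Of the 8, 5 encode parts of the terminal pathway that builds the membrane attack complex (*Hc*, *C6*, *C8a*, *C8b* and *C9*), while *C7* and *C8g* of the same pathway did not pass. *C6* was at 409, 423 and 348 CPM in males and 18.6, 26.6 and 25.8 CPM in females (log2 fold change -4.06 ± 0.24, adjusted P = 8.44e-09, edgeR), *C9* at 963, 672 and 777 and 178, 210.1 and 231 CPM, *C8a* at 1230.2, 1219.9 and 1383 and 415, 372 and 370.4 CPM, and *C8b* at 619, 624 and 573 and 219, 195 and 204 CPM. *C4a*, also called sex-limited protein, was at 53.7, 87.8 and 55.4 CPM in males and 2.61, 4.29 and 3.9 CPM in females; it shares 96% of its transcript with *C4b*, which was at 2185, 1993 and 2353 CPM in males and 1778, 1879 and 1962 CPM in females and did not pass (adjusted P = 0.77), although here too the sexes did not overlap. The gene that was higher in females was *Mbl2*, a mannose-binding lectin, at 583, 574 and 575 CPM against 302, 289 and 299 CPM. *C3* was at 11307, 11707 and 11459.5 CPM in females and 6050.0, 6555 and 7165 CPM in males and did not pass (adjusted P = 0.115), although the sexes did not overlap.

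Of 19 UDP-glucuronosyltransferases 3 were higher in females and 5 in males; *Ugt1a5* was at 93.1, 69.8 and 83 CPM in females and 23.4, 26.8 and 20.8 CPM in males, and *Ugt2b38* at 41, 34 and 44.5 CPM in males and 2.12, 2.72 and 3.16 CPM in females. Without WT female 1, WT male 1 or WT male 2 a single female Ugt gene passed, and without WT female 1 or WT male 1 only 3 male ones did. Of 16 carboxylesterases 3 were higher in females and 6 in males, and no more than 1 of the female and between 2 and 6 of the male genes passed when 1 mouse was left out, the fewest male genes (2) without WT female 1 or WT male 1. Of 7 N-acetyltransferase genes of the Nat8 group 3 were higher in males and none in females, led by *Nat8f5* at 16.7, 8.82 and 11.8 CPM in males and 0.0172, 0.254 and 0.137 CPM in females; its log2 fold change of -6.60 went to -5.97 without WT female 1 and -7.43 without WT female 2. Of 10 acyl-CoA thioesterases 3 were higher in females and none in males. Of 17 apolipoproteins, 4 Cyp2j, 7 Cyp4f and 6 Ly6 genes none passed, although 1 apolipoprotein and 1 Ly6 gene did without WT female 1. With 4.81% of all autosomal genes passing, none in families this small is near that share.

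**Figure D4:**
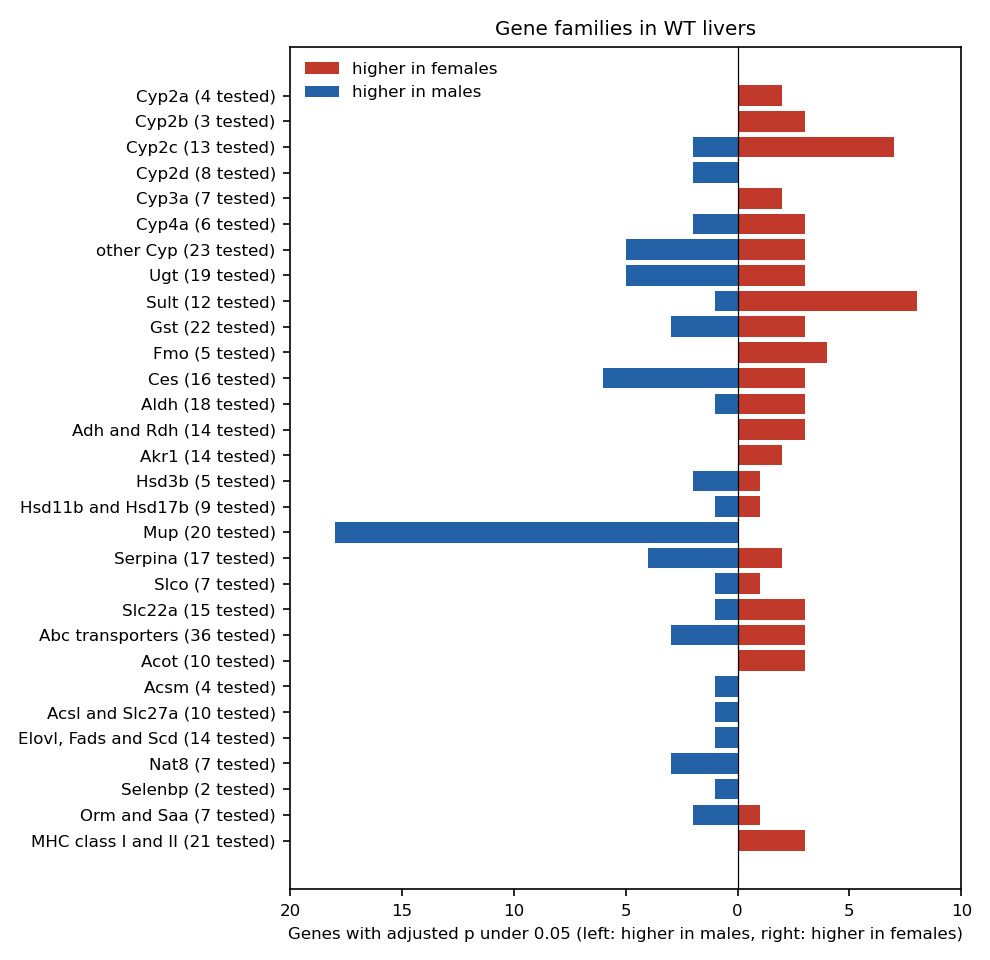
Number of genes of each family with an adjusted P under 0.05, to the right when higher in WT females and to the left when higher in WT males; the number tested stands beside each name, and families without a passing gene are not drawn. The Mup bar reaches 18 of 20 on the male side, and the longest female bars are the sulfotransferases with 8 of 12 and Cyp2c with 7 of 13.

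Of 22 tested genes of growth hormone and prolactin signalling, *Prlr* passed higher in females, *Egfr* passed higher in males and the other 20 did not pass. The share passing over all autosomal genes tested was 4.81%. *Prlr*, the prolactin receptor, was at 364, 285 and 291 CPM in females and 47.5, 48.5 and 89.1 CPM in males (log2 fold change 2.34 ± 0.27, adjusted P = 2.15e-05, edgeR). *Egfr*, the epidermal growth factor receptor, was at 813, 887 and 839 CPM in females and 1201, 2341 and 1859 CPM in males, and it no longer passed without any one mouse other than WT male 1. *Ghr* was at 547, 631 and 689 CPM in females and 741, 725 and 702 CPM in males (adjusted P = 0.438), and *Stat5b* at 68.9, 70.2 and 68.8 and 76.1, 63.9 and 58.1 CPM (adjusted P = 0.898). *Socs2* and *Cish*, feedback inhibitors that STAT5 induces, varied between mice of one sex. *Socs2* was at 56.9, 24.4 and 15.4 CPM in females and 9.56, 33.9 and 11 CPM in males, and *Cish* was at 12.5, 16.6 and 10.8 CPM in females and 26.2, 13.9 and 2.7 CPM in males.

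Of 18 known sex-dependent regulators 4 were higher in females and 1 in males, against 2.63% and 2.18% of all autosomal genes tested. The homeobox repressor *Cux2* was at 43.1, 57.9 and 35.5 CPM in females and 0.568, 0.464 and 0.84 CPM in males (log2 fold change 6.14 ± 0.60, adjusted P = 3.75e-06, edgeR). *Trim24*, a chromatin-reading cofactor, was at 102, 86.3 and 80 CPM in females and 20.8, 21.6 and 30.9 CPM in males, and the HMG-box factor *Tox* at 17.3, 12.1 and 12.2 and 2.64, 4.42 and 3.01 CPM. *Nr1i3*, the xenobiotic receptor CAR, was higher in females and *Zbtb20* in males, with log2 fold changes of 0.95 and -0.63. *Nr1i3* no longer passed without WT female 1, WT female 3, WT male 1 or WT male 2, and *Zbtb20* without any one of the 6 mice. *Bcl6*, a transcriptional repressor, was at 10.7, 6.34 and 10.4 CPM in females and 24, 18.1 and 77.1 CPM in males: each male was above each female, but WT male 3 stood far above the others and the difference did not pass (log2 fold change -2.12 ± 0.76, adjusted P = 0.145), and it was -1.20 without that mouse; *Bcl6* did pass when the filter on low counts was left out. The acute-phase gene *Saa1* was also highest in WT male 3, at 74.1, 24.3 and 182 CPM in males and 9.01, 16.7 and 15.2 CPM in females. Without WT male 3 its log2 fold change went from -2.78 to -1.85 and still passed. *Saa2* was called higher in males with overlap, at 25.3, 8.7 and 102 CPM in males and 5.44, 10.1 and 10.4 CPM in females; it went from -2.40 to -0.98 without WT male 3 and no longer passed, as it did not without any one of the females.

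None of 23 core hepatocyte transcription factors passed, where 4.81% of all autosomal genes tested did. *Hnf4a* was at 536, 568 and 606 CPM in females and 572, 609 and 586 CPM in males. A gene that misses the threshold is not shown to be equal; the standard error of *Hnf4a* was 0.12 on the log2 scale. *Esr1*, the estrogen receptor gene, was at 74.7, 88.2 and 82.8 CPM in females and 25, 31.2 and 52 CPM in males (log2 fold change 1.18 ± 0.28, adjusted P = 0.0194, edgeR), and no longer passed without WT female 2, WT female 3, WT male 1 or WT male 2. Of 17 genes that write, erase or read DNA methylation *Tet2* alone passed, at 41.2, 30.8 and 34.3 CPM in females and 20.1, 22.6 and 26.3 CPM in males, and it no longer passed without WT female 1, WT female 3, WT male 1 or WT male 2. *Mat1a*, which makes S-adenosylmethionine in the liver, was at 3341, 3593 and 3783 CPM in females and 1986, 2400.1 and 2022 CPM in males, and it no longer passed without WT female 3 or WT male 1.

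No gene passed among 22 of sterol synthesis, 22 of glucose and glycogen metabolism and 21 of coagulation. Over all autosomal genes tested 4.81% passed, so none or 1 passing gene in a list of about this size is near that share. Among 28 genes of amino acid catabolism *Asns*, asparagine synthetase, was at 7.83, 9.22 and 14 CPM in males and 0.843, 0.991 and 0.412 CPM in females (log2 fold change -3.78 ± 0.36, adjusted P = 2.85e-06, edgeR), and *Agxt2* passed on the same side but not without WT female 1, WT female 2, WT male 1 or WT male 2. Of 24 cell cycle genes *Ccnd1*, cyclin D1, was higher in females at 169, 156 and 130.4 CPM against 30.3, 22 and 51.2 CPM in males. Of 20 periportal genes 4 were higher in females and 1 in males, of 20 pericentral genes 1 was higher in females, of 19 clock genes 1 was higher in males and of 25 interferon-stimulated genes 3 were higher in females. These small counts moved with single mice: 1 female periportal gene passed without WT female 2, WT female 3 or WT male 2, and 6 interferon-stimulated genes passed without WT female 1 or WT male 3. WT female 3 was the highest female in 24 of the 25 interferon-stimulated genes, and WT male 2 the lowest male in 19. Their summed level was 538.7, 613.9 and 739.1 CPM in females and 500.1, 441 and 576.2 CPM in males, so the sexes overlapped. No male periportal gene passed without WT female 1 or WT male 1, no pericentral gene without WT female 1, WT female 3, WT male 2 or WT male 3, and no male clock gene without WT female 1, WT female 2, WT male 1 or WT male 2.

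Of 10 hepatocyte markers *Alb* passed, higher in females at 91600, 84800 and 82840 CPM against 54190, 53550 and 55920 CPM in males. It no longer passed without any one of the 6 mice. None of the tested markers of Kupffer cells (8), sinusoidal endothelial cells (9), stellate cells and fibroblasts (10), B cells (7), neutrophils (4), erythroid cells (6), pancreatic acinar cells (2) and adipocytes (2) passed. Over all autosomal genes tested 4.81% passed, so none in lists this small is near that share. *Epcam* and *Sox9* of 7 cholangiocyte markers passed in opposite directions, as did *Cd3g* and *Cd4* of 8 T and NK cell markers. *Cd3g* no longer passed without any one of the 6 mice, no male T and NK cell marker passed without any one mouse other than WT male 2, and no male cholangiocyte marker passed without any one of the females or without WT male 3. Erythroid markers varied between mice of both sexes, from 62.3 to 511 CPM in the females and from 156 to 529 CPM in the males. Their part in the results was not tested.

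Called genes lay in groups along the genome. With neighbouring starts at most 500 kb apart, 24 groups of at least 3 called genes held 118 of the 305 (38.7%), and 15 of the 24 held genes of a single direction. How often other sets of 305 tested genes fall in such groups was not measured. Each group runs from its first to its last called gene, which raises the share of called genes inside the groups. The largest was the Mup locus, with 22 called of 36 tested genes between 59964294 and 62150863 on chromosome 4 (GRCm38), all higher in males. On chromosome 7 all 8 tested genes between 25897620 and 26315088, from *Cyp2b10* to *Cyp2a4*, were higher in females, as were all 6 between 13623967 and 13837409 around *Sult2a1* and *Sult2a2*. Of the 8 genes near *Cyp2b9*, *Cyp2b27-ps*, *BC026762*, *Rnf170-ps* and *Gm42375* do not encode a P450 protein. Other groups held both directions: *Hsd3b5* was higher in males beside *Hsd3b1* and *Hao2*, and *Aldh3b3* was higher in females beside *Gstp1* and *Gstp2*. *Aldh3b3* was at 6.76, 4.68 and 3.28 CPM in females and 0.0247, 0 and 0.0634 CPM in males, and its log2 fold change of 7.07 went to 8.37 without WT male 3. The log2 fold change of *Gm42375* went from 6.86 to 10.45 without WT male 2. Members of a group are often paralogues, or transcripts that overlap a called gene, and are not independent.

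RefSeq promoters (250 bases before to 50 after the start site) could be matched for 87 of the 154 female genes, 92 of the male genes and 11083 of all autosomal genes tested. The letters TGTTTAC, on either strand, stood in 10 of the 87 female promoters (11.5%), 1 of the 92 male promoters (1.09%) and 2.64% of all. Of these 10, 4 are Cyp3a and 2 are Cyp2c genes, and members of a family are not independent. ATTGAT stood in 16.1% of the female and 15.2% of the male promoters and in 4.4% of all, and 10 of the 14 male matches were Mup genes. The female matches likewise held members of shared families, namely *Cyp3a16*, *Cyp3a41a*, *Cyp3a41b* and *Cyp3a44*, and *Cyp2c37*, *Cyp2c40* and *Cyp2c69*. In the female, the male and all promoters, the STAT letters TTCNNNGAA stood in 5.75%, 7.61% and 7.09%, the BCL6 letters TTCCTNGAA, which are contained in them, in 1.15%, 3.26% and 1.3%. The promoters of called genes also held less G and C, with a median of 51.3% in the female and 52.2% in the male genes against 60.3% over all, and its part in these shares was not tested.

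In ESR1KO mice 14 autosomal genes (0.0818%) were called higher in females and 2 (0.0117%) higher in males. The difference between the WT and the ESR1KO sex difference passed an adjusted P of 0.05 in 178 of the 305 WT genes, where 1.93% of all autosomal genes did (edgeR, interaction; the 305 were chosen on the WT mice that enter this test). Of the 154 female genes the median log2 fold change was 2.60 in WT and 0.41 in ESR1KO, and of the 151 male genes -2.77 and -0.30. *Mup7* was at 168 ± 94.9 CPM in 5 ESR1KO females (SD) and 216 ± 25.9 CPM in 4 ESR1KO males, and *Cyp4a12a* at 111 ± 19.7 and 143 ± 21.6 CPM. *Cyp3a41a* was at 0.00715 ± 0.00999 CPM in ESR1KO females and at 0.00332 ± 0.00665 CPM in ESR1KO males.

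Of the 305 genes 12 were called in the same direction in ESR1KO, among them *Cyp2b9*, *A1bg*, *Cyp2a4*, *Cyp2c69*, *Cux2*, *Cyp2c40*, *Slc22a26*, *Gm6135* and *Gm38811* in females, and the pseudogenes *Mup-ps20* and *Mup-ps7* in males. In WT, *Gm38811* went from 4.68 to 5.98 without WT male 3 and *Mup-ps20* from -10.19 to -11.10 without WT female 2. *Cyp2c40* had a log2 fold change of 4.99 in WT and 4.90 in ESR1KO (adjusted P of the difference 0.955), and stood at 211 ± 74.3 CPM in ESR1KO females and 7.1 ± 4.1 CPM in ESR1KO males. *Cyp2c69* stood at 133 ± 74.1 and 2.19 ± 1.38 CPM (adjusted P of the difference 0.35). *Cyp2b9* stood at 35.4 ± 13.5 CPM in ESR1KO females and 2.53 ± 1.81 CPM in ESR1KO males, where the WT males had no count. *Cux2* was at 4.44 ± 3.74 CPM in ESR1KO females and 0.519 ± 0.131 CPM in ESR1KO males (adjusted P of the difference 0.0523). A list of 13 tested genes near sex-biased regions of DNA methylation had 7 higher in WT females and 5 higher in WT males. That list was picked from genes already known to be sex-biased, so its count is no independent evidence of a direction. *Cyp3a16* had no count in ESR1KO mice of either sex, and its difference did not pass, which does not show that the genotypes are alike. Among genes with almost no count in ESR1KO mice, *Cyp3a41a* and *Moxd1* passed (adjusted P = 0.0305 and 0.0367, edgeR, interaction) and *Cyp3a41b* did not.

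**Figure D5:**
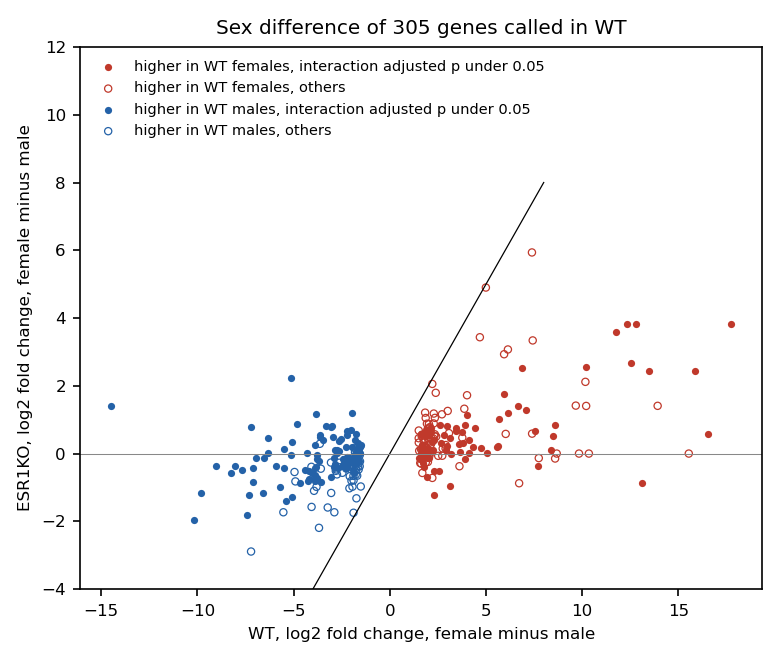
Log2 fold change (female over male) in ESR1KO mice (y axis) against WT mice (x axis) for the 305 genes called in WT, with the line of equality. Filled points have an adjusted P under 0.05 for the difference between genotypes and open points do not; most genes lie near 0 on the y axis, and values beyond 10 on the x axis are fitted against groups with almost no reads.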

How the data were processed

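Total RNA from liver (TRIzol) was made into rRNA-depleted TruSeq libraries and read as paired ends on a NovaSeq6000, with a top-up run for libraries of few reads. The authors deposited raw counts of reads per gene for 15 libraries, made per the submitters' processing notes with Trimmomatic 0.36, STAR and HTSeq 0.6.0 on GRCm38; the handling of strand and of reads that map to several genes is not given in the sources used here, so counts of near-identical copies and of overlapping genes are uncertain. The authors' counts were tested here with edgeR 4.0.16 in R 4.3.3 (default filter on low counts, TMM scaling, quasi-likelihood F test, the 4 groups of genotype and sex in 1 fit, contrast of WT female against WT male), with Benjamini-Hochberg adjustment over 17655 genes, of which 17117 are autosomal (GENCODE M21). Positive log2 fold changes are higher in females; ± is the standard error for log2 values and the SD for CPM. A gene passed at an adjusted P under 0.05, and was called if its log2 fold change was also at least 1.5 in size. An exact permutation test of 3 against 3 mice cannot go below 0.1 and was not used. CPM used TMM-scaled totals; counting error is small beside the spread between mice at these depths except for genes of a few reads.

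Counts of 17424 genes were simulated for this contrast with the spread fitted to these data, and changed genes were picked among those averaging at least 1 CPM. Of the changed genes, 99 of 100 with a log2 fold change of 2 and 100 of 100 with 3 were called, and 3 of 17224 unchanged genes. Changes in rarer genes and changes below 2 were not simulated. With a filter of at least 1 CPM in 3 libraries, 112 genes were called higher in females and 114 in males, in place of 154 and 151. Members, gene lists and families were chosen with earlier results of these data known. Named genes are the study's methylation panel; passing growth hormone genes and regulators, with Stat5b, Ghr, Bcl6, Cux2 and Hnf4a; the 12 largest fold changes per direction among protein-coding called genes of at least 2 CPM; the 6 most abundant called genes per direction; up to 2 genes per list and direction; genes called in both genotypes; and members of genomic groups. Other names, such as Mup3, C4b, C3, C8a, C8b, C9, Hc, Cish, Socs2, Cpt1a, Srd5a1, Vnn1, Hadh, Acox2, Cyp2a5, Cyp2a12, Atp2b2 and the markers of other cells, were chosen after their values were seen. Some genes are not reported here. Alternatives were other scalings, filters and thresholds, DESeq2 1.42.0, a fit of the 6 WT libraries only, a replicate block and leaving out each WT mouse.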

Additional observations from a re-analysis of the deposited data

Results flagged for a closer look

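For 9 genes of the study's methylation panel the sex difference in WT mice differed from that in ESR1KO mice by a direct test of that difference (edgeR, interaction term, adjusted P under 0.05). As log2 fold change in WT minus log2 fold change in ESR1KO, the difference was 13.92 for Cyp2b9, 13.42 for Cyp2b13, 5.78 for Aldh3b3 and 1.499 for Fmo2. On the male side it was -3.15 for Gstp1, -2.74 for Gstp2, -3.72 for Cyp7b1, -3.85 for Hsd3b5 and -3.79 for Elovl3. The values of Cyp2b9 and Cyp2b13 are fitted against WT males with no reads and are not bounds. Breeding, litter and library differences between the genotypes cannot be told apart from genotype.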

How the results depend on the processing

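No named gene that passed changed direction under the alternatives run; Stat5b, which did not pass, went from 0.07 on the log2 scale to -0.015 without WT male 3. With a log2 fold change of at least 1, 242 genes were called higher in females and 221 in males, in place of 154 and 151. Counts by adjusted P alone moved more, from 451 in females and 373 in males with the main fit. DESeq2 gave 603 in females and 579 in males, and a fit of only the 6 WT libraries gave 606 and 598. A replicate block on those 6 libraries gave 668 and 546. When single mice were left out, between 276 and 450 genes passed in females (451 with all mice) and between 237 and 309 in males, the fewest without WT male 1 and WT female 3; the called genes ranged over 136 to 168 and 136 to 153. The replicate numbers did not pair the mice (correlations of same-numbered deviations 0.0145, 0.138 and 0.0441), and with a replicate block 150 genes were called in females and 148 in males; Bcl6, which did not pass, passed with the block, also with the 6 WT libraries only, and without the filter on low counts (adjusted P over all its alternatives 0.0143 to 0.464, log2 fold change -2.47 to -1.20). Of 192 named genes that passed, 143 passed under every alternative. Depth limits genes with a few reads, whose fold changes can depend on 1 mouse.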
